A study of Mus musculus with 43 samples.

Results

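Bcl11a, Zbtb7a, Sox6, Myb and Ikzf1 are 5 mouse genes whose products hold back embryonic or fetal globin genes or set the pace of the globin switch. They were taken as a named group from the 21523 protein-coding genes placed on the autosomes and X in RefSeq's gene table for GRCm38.p6, which is the assembly behind mm10. For each gene, every EKLF region was collected whose centre lay in the gene body or within 10 kb of either end. This gave 61 of 15564 regions in Nan/+ and 30 of 9181 regions in WT.

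The regions come from chromatin immunoprecipitation (ChIP) of EKLF with the 7B2a antibody in mouse fetal liver at E13.5. The tested livers were Nan/+, heterozygous for the Nan allele of Klf1, the gene that encodes EKLF, so these cells carry a normal and a Nan allele. The comparison livers were wild type from the same strain, labelled Nan strain WT, and the design text says that ChIP livers came from littermates. Of the 43 samples of the series, 3 Nan/+ and 3 WT EKLF ChIP libraries stand behind the lists used here, described as biological replicates. The labels give the cell type as primary erythroid, and the protocol describes dispersed and strained whole livers with no sorting step. Each genotype has 1 list of regions made from its 3 libraries together, without a strength per region, so no spread between replicates and no test is available. ChIP depth, per the file headers, was 72023512 to 100763687 tags per library in Nan/+ and 74140385 to 103170594 in WT. In bulk chromatin, binding in fewer cells and weaker binding in each cell cannot be told apart, and a region missing from a list may lie just under its calling threshold.

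EKLF is an erythroid zinc-finger activator that binds CACCC-type DNA. In human erythroid cells it is known to activate BCL11A and ZBTB7A (also called LRF), a pair of zinc-finger repressors that silence fetal globin largely through the NuRD corepressor complex. SOX6 is an HMG-box factor that represses embryonic beta-like globin in mouse definitive red cells. MYB keeps erythroid progenitors cycling, and human variants in the interval between HBS1L and MYB are associated with fetal haemoglobin. Ikaros, encoded by Ikzf1, is a zinc-finger factor of lymphoid and blood progenitors with a reported part in mouse globin switching. The Nan change lies in a DNA-contacting zinc finger, and altered sequence preference has been reported for the mutant protein.

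Promoter sequence is shown first for the 2 start sites of these genes that EKLF regions covered, and then for a pair that they did not cover although EKLF-type words stand there. All are from the RefSeq promoter table (GRCm38.p6), 5′ to 3′ on the gene's strand, and hold the 250 bases before a listed start site. Capitals mark each match, on either strand, to the words CCACACCC, CCACGCCC, CCCCACCC and CCCCGCCC (the site of normal EKLF) or CCANGCCC and CCCNGCCC (the site reported for Nan). CCACGCCC and CCCCGCCC are also matches to the Nan words, so they count for both sets. The windows are chr10:81136021-81136270 on the plus strand for Zbtb7a, chr7:115846141-115846390 on the minus strand for an internal start site of Sox6, chr11:24080445-24080694 on the plus strand for Bcl11a, and chr10:21160985-21161234 on the minus strand for Myb.
Zbtb7a: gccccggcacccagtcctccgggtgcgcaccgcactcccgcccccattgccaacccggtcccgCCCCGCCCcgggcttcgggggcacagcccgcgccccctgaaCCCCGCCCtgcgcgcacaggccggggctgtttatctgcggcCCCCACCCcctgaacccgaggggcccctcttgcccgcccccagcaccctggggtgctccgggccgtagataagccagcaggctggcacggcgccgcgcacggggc
Sox6: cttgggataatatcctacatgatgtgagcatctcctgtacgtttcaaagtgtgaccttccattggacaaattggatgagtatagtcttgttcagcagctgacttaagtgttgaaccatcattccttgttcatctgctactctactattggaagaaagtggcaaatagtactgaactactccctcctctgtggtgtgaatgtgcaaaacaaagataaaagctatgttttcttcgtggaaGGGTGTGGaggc
Bcl11a: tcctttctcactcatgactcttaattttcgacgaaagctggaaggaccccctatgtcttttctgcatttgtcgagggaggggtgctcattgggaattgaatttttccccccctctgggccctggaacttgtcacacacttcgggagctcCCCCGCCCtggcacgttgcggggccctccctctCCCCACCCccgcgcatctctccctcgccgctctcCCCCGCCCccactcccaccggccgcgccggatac
Myb: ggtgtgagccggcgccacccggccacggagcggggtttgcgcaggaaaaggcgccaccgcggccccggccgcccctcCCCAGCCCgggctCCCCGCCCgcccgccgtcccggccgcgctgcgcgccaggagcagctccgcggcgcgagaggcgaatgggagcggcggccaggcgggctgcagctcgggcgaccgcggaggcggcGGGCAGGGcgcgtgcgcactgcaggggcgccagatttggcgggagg

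The Zbtb7a window held CCCCGCCC at 187 and 146 bases before the start site and CCCCACCC at 105. It was overlapped by a region in both lists. The Sox6 window held a single word, CCACACCC on the opposite strand, 12 bases before the start site, and was overlapped by a Nan/+ region and by no WT region. CCACACCC has the form of the CACCC box of the adult beta-globin promoter. The Bcl11a window held CCCCGCCC at 101 and 34 bases and CCCCACCC at 68 bases before the start site. In the Myb window CCCCGCCC stood at 160 bases, and CCCNGCCC matched there and at 173 and 46 bases. No region of either list overlapped the Bcl11a or Myb window. The same held for a Sox6 window not printed here, at start site 116031047, with CCCCGCCC at 198 and 117 bases. Of all 11 windows of 300 bases listed for the 5 genes, 2 overlapped a Nan/+ region, 1 a WT region and 1 both. Over all 32619 windows in the table these shares were 8.57% in Nan/+, 13.8% in WT and 5.10% in both. Any of the 6 words was found in 5 of the 11 windows and in 40.4% of all windows. CCCCGCCC alone was found in 17.7% of all windows, CCCNGCCC in 27%, CCCCACCC in 10.1%, CCANGCCC in 11.6%, CCACGCCC in 5.36% and CCACACCC in 3.57%. A match describes the letters and does not show a bound site.

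All 5 genes had a Nan/+ region, against 37.5% of protein-coding genes, and 4 of 5 had a WT region, against 33.5%. The shares over all genes given here were not matched for gene length, and the windows of the 5 genes ran from 37.0 to 590 kb. Regions in both lists were found at 4 genes, against 23.5% of protein-coding genes. Myb alone of the 5 had a Nan/+ region and no WT region in its window, a state found in 14.1% of genes, and no member had a WT region alone, as 10.1% of genes did. Every member had more Nan/+ than WT regions, which held for 23.0% of genes. That share counts genes without a region in either list. Among the 8081 genes with a Nan/+ region, as all 5 members had, 4955 had more Nan/+ than WT regions. Without Nan/+ regions of the minimum width (176 bp) only Myb, with 1 Nan/+ region and 0 WT regions, and Ikzf1, with 3 and 1, had more. Zbtb7a then had 5 and 5, Bcl11a 0 and 1, and Sox6 19 and 23. All WT regions were kept in these counts, and 21 of the 23 at Sox6 were wider than 176 bp. Under a limit at the median width of each list, 176 bp in Nan/+ and 396 bp in WT, Bcl11a had 0 in both. Every other member then had more Nan/+ than WT regions, with 19 and 9 at Sox6 and 5 and 4 at Zbtb7a. With gene ends within 50 kb, Zbtb7a alone of the 5 had more WT than Nan/+ regions, with 11 Nan/+ and 12 WT. The Nan/+ list is the longer of the lists, and its calling settings differed from those of the WT list. Overlapping Nan/+ and WT regions were found at 2 members, Zbtb7a and Sox6, against 13.3% of genes. Of the 61 Nan/+ regions at the 5 genes 6 overlapped a WT region, or 9.84% (exact binomial 95% interval 3.70 to 20.2), and of the 30 WT regions 6 overlapped a Nan/+ region, or 20.0% (7.71 to 38.6). In the whole lists these shares were 14.7% of Nan/+ regions and 24.5% of WT regions. The intervals cover counting error only, and regions of 1 gene are not independent.

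**Figure D1:**
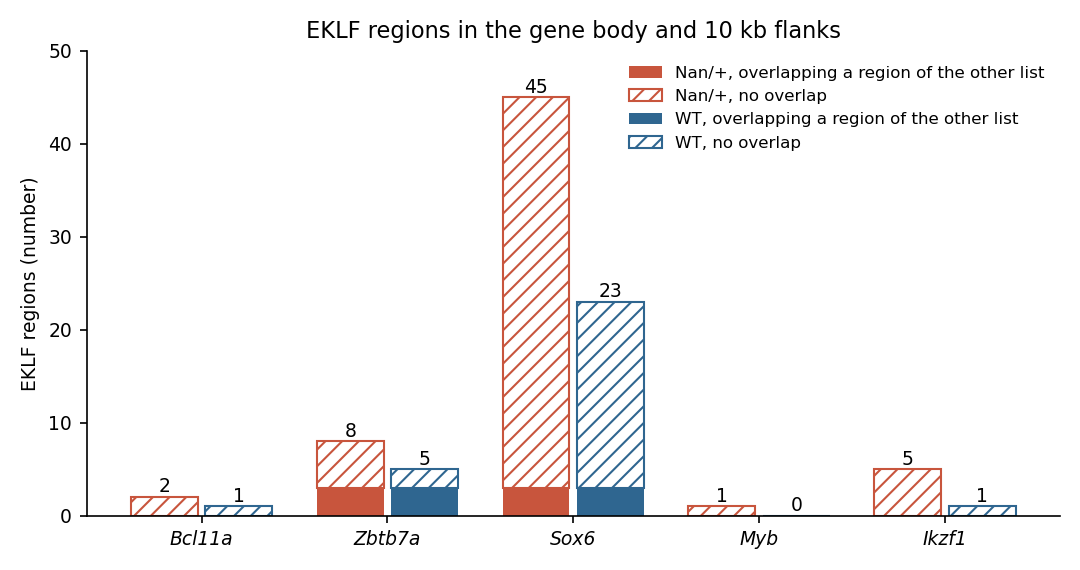
Number of EKLF regions (vertical axis) at each of the 5 genes, Nan/+ bars left of WT bars, with the solid part overlapping a region of the other list and the hatched part not. Sox6 holds 45 of the 61 Nan/+ and 23 of the 30 WT regions, and only Zbtb7a and Sox6 have solid parts.

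Widths differed between the lists at these genes. Among the 61 Nan/+ regions 33, or 54.1%, had the list's minimum width of 176 bp, against 54.5% of the whole Nan/+ list. Regions wider than 176 bp numbered 28 in Nan/+ and 28 in WT. All 6 shared Nan/+ regions were among the wider ones. The median width at the 5 genes was 176 bp in Nan/+ and 332 bp in WT, against 176 bp and 396 bp in the whole lists. Width depends on the calling settings, and per the file headers both the peak size and the spacing allowed between peaks were set larger for Nan/+ than for WT.

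Bcl11a (gene ID 14025) spans chr11:24076564-24173558 on the plus strand, 97.0 kb. In Nan/+ it held regions at 24141053 to 24141228 and at 24152528 to 24152703, both 176 bp wide. They lay 60.4 and 71.9 kb downstream of the listed start site, in the later part of the gene. In WT it held 1 region, at 24078897 to 24079226, 330 bp wide and centred 1634 bp upstream of that start site, within the gene as the table bounds it. The nearest Nan/+ region to it was 62.1 kb away. The lists thus shared no position at Bcl11a, with the WT region near the start and the Nan/+ regions, both of minimum width, deep in the body. An erythroid enhancer of human BCL11A lies in an intron, but the gene table gives no exons, so exons and introns were not told apart. Of the surrounding sequence, the 2210 kb up to Fancl held 0 regions in both lists, and the 181 kb up to Papolg held 1 Nan/+ region and 0 WT regions. By number of regions Bcl11a was unremarkable: 17.2% of protein-coding genes had as many Nan/+ regions or more, and 33.5% as many WT regions or more.

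Ikzf1 (gene ID 22778) spans chr11:11684962-11772930 on the plus strand, 88 kb. It held 5 regions in Nan/+ and 1 in WT, with 0 shared. The widest Nan/+ region, 500 bp at 11689010 to 11689509, was centred 918 bp upstream of the second listed start site, and only 6.99% of the Nan/+ list was as wide. Another, 328 bp wide, lay 5.65 kb upstream of the gene, at 11679146 to 11679473, inside the annotated locus Gm11999. The other Nan/+ regions lay 24.6, 48.6 and 74.9 kb from the 5′ end of the gene, with widths of 176, 176 and 276 bp. The WT region, 474 bp at 11729203 to 11729676, lay 44.5 kb from the 5′ end, and 4.11 kb separated it from the nearest Nan/+ region. Nan/+ regions were therefore spread from upstream of the first start site to the later part of the gene, whereas WT had a single region in mid-gene. As many Nan/+ regions or more were found at 3.03% of protein-coding genes. Beyond the 10 kb limit, a further Nan/+ region lay 16.4 kb upstream, and 1 more between Ikzf1 and Fignl1; WT had 0 in both gaps.

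**Figure D2:**
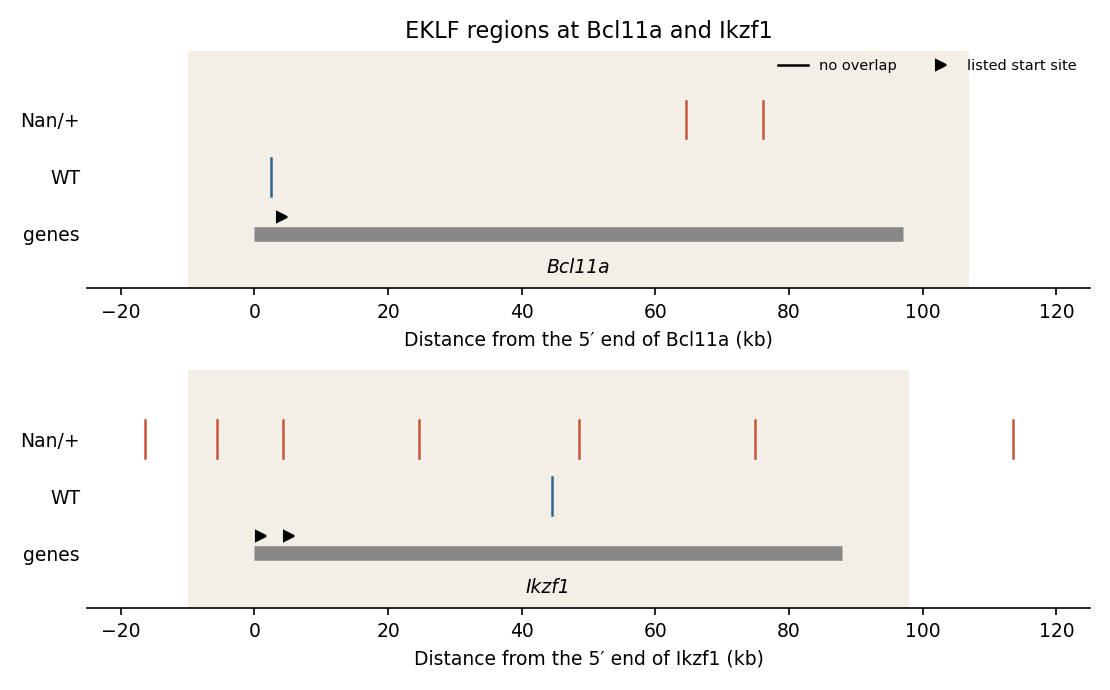
EKLF regions of Nan/+ (upper row) and WT (lower row) by distance from the 5′ end of Bcl11a (top) and Ikzf1 (bottom) in kb. Ticks mark region centres and not widths, shading marks the gene with 10 kb flanks, and no tick of a Nan/+ row coincides with a WT tick.

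Zbtb7a (gene ID 16969) spans chr10:81135225-81152222 on the plus strand, only 17.0 kb, and had 8 regions in Nan/+ and 5 in WT. As many regions or more were found at 1.12% of genes in Nan/+ and 1.38% in WT. The lists overlapped at the start site. A 399 bp Nan/+ region at 81136041 to 81136439 was centred 31 bp upstream of it, and the WT region there, 736 bp at 81136061 to 81136796, was centred 158 bp downstream. They had 379 bp in common, nearly the whole Nan/+ region and 51.5% of the WT region. A second Nan/+ region, 284 bp at 81136781 to 81137064, bridged the gap between this WT region and the next. It overlapped the first by 16 bp and the second, which was 957 bp wide at 81136953 to 81137909, by 112 bp. That 957 bp region was the widest WT region at any of the 5 genes, and 5.71% of the WT list was as wide.

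Within the rest of the Zbtb7a gene Nan/+ had 3 regions, 264, 176 and 176 bp wide at 7.36, 10.7 and 12.6 kb past the start site, and WT had 0. Between Map2k2 and Zbtb7a, a gap of 10.5 kb, Nan/+ had 2 regions and WT had 0. The farther of these, centred 9.76 kb before the gene, lay just inside the 10 kb limit. On the other side, Pias4, which encodes a SUMO ligase, begins 1.74 kb beyond Zbtb7a, and all regions of the 10 kb flank there lay inside Pias4. They were 1 Nan/+ region, 566 bp wide, and 3 WT regions, 714, 753 and 268 bp wide. The Nan/+ region covered the whole of the 268 bp WT region (81159029 to 81159296). Farther out, in or beyond the neighbouring genes, 3 more Nan/+ regions within 50 kb of Zbtb7a overlapped WT regions. They started at 81105646 in Map2k2, 81167646 in Pias4 and 81192307 in Dapk3, with centres 67.0, 14.0 and 31.5 bp from those of WT. WT also had regions there that overlapped no Nan/+ region. These started at 81091016 in Creb3l3, 81109870 in Map2k2, 81176518 in Eef2 and 81182484 across Eef2 and Dapk3. Every Nan/+ region of this outer stretch was shared. Whether the regions in Pias4 belong to Zbtb7a or to Pias4 cannot be told from position.

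**Figure D3:**
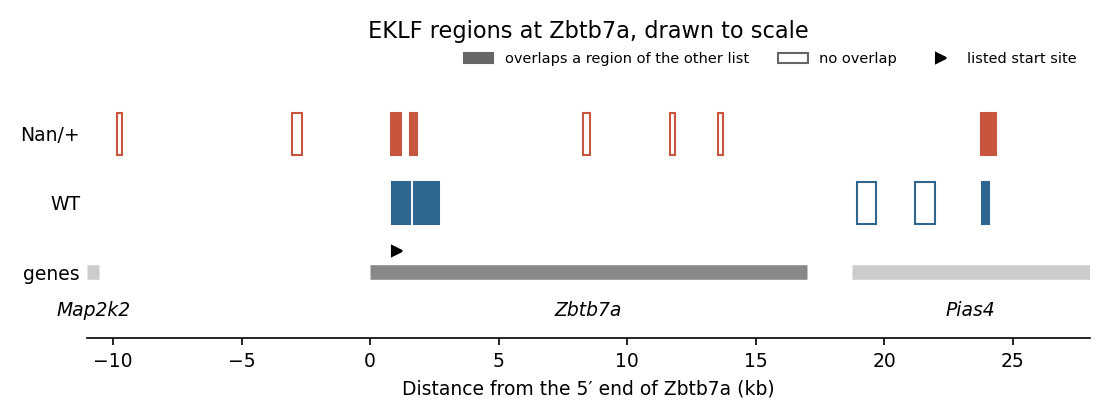
EKLF regions of Nan/+ (upper row) and WT (lower row) drawn to scale by distance in kb from the 5′ end of Zbtb7a, filled where they overlap a region of the other list. Filled boxes stand at the start site and within Pias4, and open Nan/+ boxes alone stand in the rest of the Zbtb7a body.

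Sox6 (gene ID 20679) spans chr7:115470872-116040776 on the minus strand, 570 kb, with 6 listed start sites, and held most of the regions of the group. It had 45 Nan/+ and 23 WT regions, all inside the gene. Counting Sox6 itself, 3 protein-coding genes had that many Nan/+ regions and 5 had that many WT regions. Among shorter genes Gse1, 353 kb long and named here after its values were seen, had more than Sox6 in both lists, with 51 Nan/+ and 27 WT regions. The 227 genes over 500 kb had a median of 1 Nan/+ and 0 WT regions, and the most at any of them other than Sox6 was 29 in Nan/+ and 17 in WT. Sox5, the close relative of Sox6, named here after its values were seen, is 954 kb long and had 1 region in each list. Per 100 kb of window Sox6 had 7.63 Nan/+ and 3.90 WT regions. Over the windows of all protein-coding genes the density was 1.19 and 0.857. Of the Nan/+ regions of Sox6, 26 had the minimum width of 176 bp and 19 were wider. Of the 23 WT regions, 21 were wider than 176 bp. The Nan/+ excess was thus absent once calls of the Nan/+ minimum width were left out and the wider WT regions were kept. It remained with regions above the median width of each list, 176 bp in Nan/+ and 396 bp in WT. Sox6 then had 19 Nan/+ and 9 WT regions.

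The lists met at 3 places in Sox6. Of the Nan/+ regions 6.67% (exact binomial 95% interval 1.40 to 18.3) and of the WT regions 13.0% (2.78 to 33.6) were shared. The shares in the whole lists, 14.7% of Nan/+ and 24.5% of WT regions, lay within these intervals, which cover counting error only. The shared pairs lay 52, 168 and 295 kb from the 5′ end. The pair nearest the 5′ end consisted of a 339 bp Nan/+ region (115988363 to 115988701) and a 308 bp WT region with 145 bp in common. The middle pair was the closest match, a 440 bp Nan/+ region (115872937 to 115873376) that covered all of the 291 bp WT region, with centres 18.5 bp apart. The third consisted of a 350 bp Nan/+ region (115746034 to 115746383) and a 412 bp WT region, with 145 bp in common. Every other Nan/+ region but 1 was centred over 1 kb from any WT region, that is 41 of 45, and 22 lay over 10 kb from one. The median distance from a region to the nearest of the other list was 9.61 kb for Nan/+ regions and 7.07 kb for WT regions.

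The lists differed most in number in a single segment of Sox6. From 300 to 400 kb along the gene Nan/+ had 17 regions and WT had 1. Of these 17 Nan/+ regions, 10 were wider than 176 bp, as was the WT region. A run of 15 Nan/+ regions from 115674657 to 115741719, 67.1 kb, was interrupted by no WT region, and it fell in the longest stretch of the gene between WT regions, 78.0 kb. In the other 100 kb segments the numbers were closer. From the 5′ end they were 7 Nan/+ and 5 WT regions from 0 to 100 kb, 9 and 7 from 100 to 200 kb, 7 and 6 from 200 to 300 kb, and 3 and 3 from 400 to 500 kb. The last stretch, from 500 kb to the 3′ end, held 2 Nan/+ regions and 1 WT region. Counting regions wider than 176 bp alone, WT had more in every segment but that from 300 to 400 kb. In the first 3 segments the numbers were 3 Nan/+ and 4 WT, 3 and 7, and 2 and 6. They were 1 Nan/+ and 2 WT from 400 to 500 kb, and 0 and 1 in the last stretch. The longest stretch between Nan/+ regions, 48.4 kb from 115782811 to 115831015, held 5 WT regions.

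At some start sites of Sox6 a single list had regions close by. At the 5′ end, Nan/+ had regions 4.49 and 18.3 kb into the gene, whereas the first WT region lay 52.1 kb in. At the start site at 115846140, whose promoter is printed above, the 507 bp Nan/+ region from 115845881 to 115846387 covered 297 of the 300 bases of the window. It was the widest Nan/+ region in the gene. The nearest WT region was 25.8 kb from that window. At the most internal start site, 115801609, the order was the opposite. WT had its widest region in the gene, 678 bp at 115799495 to 115800172, centred 1776 bp downstream, and further regions centred 1786 and 4344 bp upstream. The nearest Nan/+ region was 18.8 kb from that window. These stretches and start sites were picked out after the positions were seen and carry no test.

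**Figure D4:**
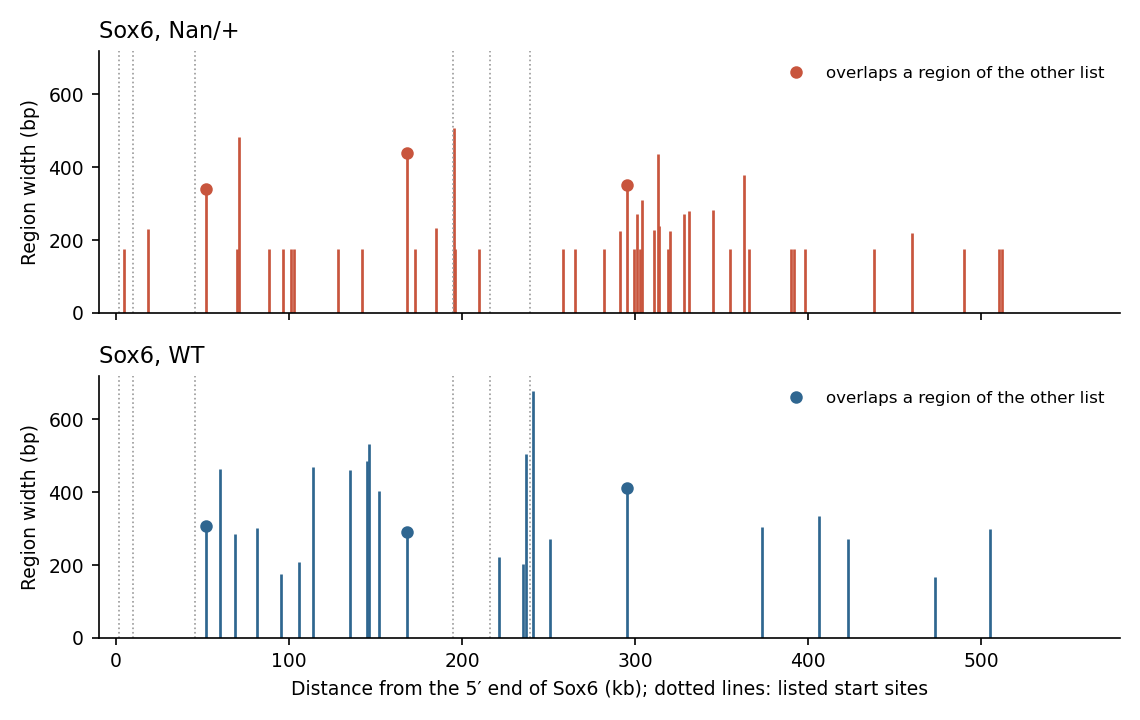
Width in bp (height of each line) of the EKLF regions of Sox6 by distance in kb from its 5′ end, Nan/+ above and WT below, with dots on regions that overlap the other list and dotted lines at the listed start sites. The Nan/+ lines crowd between 300 and 400 kb, where WT has 1 line, and dots stand at 3 places.

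Myb (gene ID 17863) spans chr10:21124930-21160984 on the minus strand, 36.1 kb. In its body and 10 kb flanks Nan/+ had 1 region and WT had 0. The Nan/+ region, 243 bp at 21159875 to 21160117, was centred 988 bp downstream of the start site, in the first part of the gene. The nearest WT region was 36.8 kb from it. As many Nan/+ regions or more were found at 37.5% of genes.

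Most regions near Myb lay beyond its 10 kb flank, in the 135 kb towards Hbs1l, an interval known to hold distal Myb enhancers bound by erythroid factors. There Nan/+ had 4 regions and WT had 3, and 1 position was shared. It lay 35.8 kb upstream of Myb, with a Nan/+ region of 176 bp at 21196695 to 21196870 and a WT region of 236 bp at 21196633 to 21196868. They had 174 bp in common, with centres 32.0 bp apart. WT had a further region of 248 bp, 67.8 kb upstream (21228620 to 21228867), and the nearest Nan/+ region to it, 74.0 kb upstream, was 6.28 kb away. Nan/+ also had regions 32.5 and 90.7 kb upstream. The third WT region, 607 bp at 21295588 to 21296194, lay over the near end of Hbs1l, where no Nan/+ region was called within 44.2 kb. On the other side of Myb, in the 44.5 kb up to Ahi1, Nan/+ had 1 region and WT had 0. All Nan/+ regions of these gaps had the minimum width of 176 bp.

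**Figure D5:**
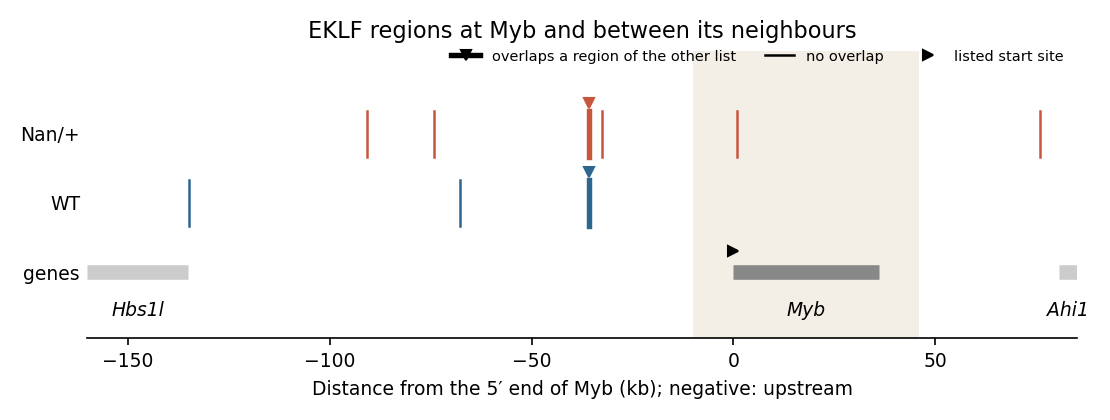
EKLF regions of Nan/+ (upper row) and WT (lower row) by distance in kb from the 5′ end of Myb, with Hbs1l to the left and Ahi1 to the right. Ticks mark region centres, shading marks Myb with its 10 kb flanks, and the thick ticks 35.8 kb upstream are the shared position.

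The partners and relatives of the members were counted in the same way, with lists chosen while earlier results of these data were known. Of 21 NuRD subunits and other corepressors, 18 had a Nan/+ region and 19 a WT region, with overlapping regions at 12. Over all protein-coding genes the shares were 37.5% with a Nan/+ region, 33.5% with a WT region and 13.3% with overlapping regions. Ncor1, a nuclear receptor corepressor, had 8 in Nan/+ and 5 in WT. Gatad2a, a NuRD subunit, and Rcor1, a corepressor of the LSD1 complex, each had 6 and 4. Hdac2, a histone deacetylase, had a WT region alone. Of 15 other regulators of globin switching, 13 had a Nan/+ and 12 a WT region. Zfpm1, encoding the GATA1 cofactor FOG1, led them with 27 Nan/+ and 24 WT regions. Nfix, encoding a nuclear factor I protein, had 7 and 5. Klf1 itself had 3 Nan/+ regions and 6 WT regions. Igf2bp1 and Igf2bp3, which encode RNA-binding proteins of fetal cells, had 2 and 1 Nan/+ regions and 0 in WT, and Nr2c1, the orphan receptor TR2, had a WT region alone. Of 11 family relatives of the members, 6 had a Nan/+ and 6 a WT region, with 7 regions in each list in all. Among the Ikaros family, Ikzf3 had 2 and Ikzf2 had 1 Nan/+ region with 0 in WT, Ikzf4 had 2 WT regions with 0 in Nan/+, and Ikzf5 had 1 in each. The median over all protein-coding genes was 0 regions in each list. No test was run on these lists.

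Of 7 globin genes 5 had a Nan/+ region and 6 a WT region. Among the 3 embryonic globin genes, Hba-x had 4 Nan/+ and 6 WT regions, Hbb-y had 0 and 2, and Hbb-bh1, named after its values were seen, had 0 in both. Windows were taken gene by gene, so a region within 10 kb of more than 1 gene was counted at each. Markers of lymphoid cells and hepatoblasts, other cells of the fetal liver, were counted beside the 37.5% of all genes with a Nan/+ region and the 33.5% with a WT region. Of 9 lymphoid markers, 4 had a Nan/+ region, with 1 each at Il7r, Ebf1, Pax5 and Cd79a, and 1 had a WT region, Cd79a with 2. Of 9 hepatoblast markers, 3 had a Nan/+ region, namely Afp with 7 and Hnf4a and Krt18 with 1 each, and 2 had a WT region, Afp with 2 and Hnf4a with 1. Alb and Apoa1, defining hepatoblast genes named after their values were seen, had 0 in both. Ikzf1 and Myb are also used by lymphoid and progenitor cells, and the part of such cells in the regions called there was not tested.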

How the data were processed

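EKLF ChIP regions were read from 1 BED list per genotype. Per the file headers, the authors called them with HOMER on mm10 using a q of 0.01, a fold of 4 and a replicate step run through DESeq2 (FDR 0.01, log2 fold 2), with 2 distinct input libraries filling 3 input places. Bowtie2 2.1 and SAMtools 1.1 are named in the submitters' processing notes. The authors' deposited score is 1 in every row, so it was not used. Starts were converted to count from 1.

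Gene bounds came from RefSeq GRCm38.p6, leaving out 377 protein-coding entries. The filters removed entries off the autosomes and X, without bounds, with a repeated gene ID, or with a start low enough to be taken for a scaffold. All 5 members matched by symbol. Strand and start sites came from the promoter table. Regions overlapping by at least 1 bp counted as shared. Counting and overlap code was tested on simulated regions. Members and gene lists were chosen with earlier results of these data known. From each list the text names up to 3 genes with the most regions and up to 3 with regions in 1 genotype alone. Sox5, Gse1, Hbb-bh1, Alb and Apoa1 fall outside that rule and were chosen after their values were seen. No test was planned or run, since each list pools its libraries. Alternatives were other gene flanks, assignment by any base, other overlap rules and width limits. Analyses used Python 3.11.15, pandas 2.3.3, NumPy 2.4.6 and SciPy 1.17.1.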

Additional observations from a re-analysis of the deposited data

How the results depend on the processing

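No paired analysis was possible because the libraries of a genotype enter 1 joint list, which also prevents leaving out a library. All 5 genes had a Nan/+ region with gene ends within 5 or 50 kb and with assignment by any base, and 4 without minimum-width regions. With 50 kb Myb had 4 Nan/+ regions and 1 WT region. Zbtb7a alone of the 5 genes then had more WT than Nan/+ regions, with 11 Nan/+ and 12 WT. Of 39 alternative counts over the 5 genes 30 stayed within 1.5 times, and of 50 at single genes 37 did. These tallies include counts of all WT regions under the limit on Nan/+ width alone, which that limit cannot change. The Nan/+ count fell to 28 with Nan/+ regions above the minimum width, and by construction also with regions above the median width of each list, because the Nan/+ median is the minimum width. Regions above the median stand in for the planned widest 50%, which ties prevented, and left 14 WT regions. Shared regions numbered 10 in each list with gene ends within 50 kb, 2 with a reciprocal overlap of 50%, and 3 with regions above the median width. Without minimum-width Nan/+ regions the excess of Nan/+ over WT ended at Bcl11a (0 Nan/+ and 1 WT), Zbtb7a (5 and 5) and Sox6 (19 and 23). All WT regions were kept there, and at Sox6 21 of them were wider than the Nan/+ minimum width. Above the median width of each list, 176 bp in Nan/+ and 396 bp in WT, the excess remained at 4 genes. Sox6 had 19 Nan/+ and 9 WT regions, Zbtb7a 5 and 4, Ikzf1 3 and 1, and Myb 1 and 0. Bcl11a had 0 in both. ChIP depth overlapped between genotypes, and since the lists hold no tags by region, how near an uncalled site came to the threshold is unknown.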
